A study of Mus musculus with 12 samples.

Results

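The expression of 8 genes that mark thalamic neurons was followed in 12 RNA-seq libraries of mouse tissue labelled as hippocampus. The genes were chosen by name: Tcf7l2, Lef1, Prkcd, Slc17a6, Ntng1, Rora, Rgs16 and Synpo2. They are 8 of the 27833 genes in the table, and no threshold on a measured value entered the rule. The choice was made with earlier results of these data known. Shares of the members set beside shares of all genes are therefore descriptions. All 12 libraries came from male C57BL/6J wild-type mice aged 20 months. The mice received pyrroloquinoline quinone (PQQ), a redox cofactor, or saline by oral gavage for 14 days. The CON group (3 libraries) received saline without PQQ, PQQ-L (5 libraries) received 5 mg/kg per day, and PQQ-H (4 libraries) received 10 mg/kg per day. The study set out with 6 mice in each group. The labels do not state that each library is a separate mouse, so the tests measure the spread between these libraries. Natural aging was the model, and no young group is among the samples used here.

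The thalamus lies beneath the hippocampus and relays sensory and motor signals to the cortex. In the adult thalamus, the transcription factors TCF7L2 and LEF1 bind DNA at the same short sequence and can act with beta-catenin. TCF7L2 keeps up the identity and excitability of thalamic relay neurons, which release glutamate loaded into vesicles by VGLUT2, the product of Slc17a6. Most excitatory neurons of the hippocampus itself use VGLUT1, the product of Slc17a7. None of the 8 genes is exclusive to the thalamus: Slc17a6 also marks other subcortical neurons, Rora is used by many neurons, and Ntng1 by several forebrain regions. In bulk tissue, fewer cells of a type and less RNA per cell cannot be told apart.

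The 12 libraries held 29654553 to 38179496 reads on genes (median 35168171.5), recovered as whole reads from the deposited FPKM values. Several libraries departed from their hippocampal label. Of the 15 hippocampal neuron genes, Lct was listed at 0 in CON 1, and the FPKM of Neurod6, a transcription factor of pyramidal neurons, was 2.30 in CON 1, 78.9 in CON 2 and 31.6 in CON 3. Of the 15 striatum genes, the summed FPKM was 3506 in CON 1, 1429 in CON 3, 2633 in PQQ-H 1 and 1392 in PQQ-H 2, but at most 188 in each of the other 8 libraries. All 12 choroid plexus genes were highest in CON 3. The results below are therefore also given without the 4 libraries with high striatum genes, and without CON 1 and CON 2, which stood apart for the thalamic genes themselves. Both choices were made after seeing the data.

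The promoter sequences of 5 of the 8 genes are shown because these genes had their 2 highest libraries in common, CON 1 and CON 2. Each is the stretch of 250 bases upstream of the 5′-most annotated start, from RefSeq in build GRCm38.p6, written 5′ to 3′ on the strand of the gene. All 8 genes had an entry. Tcf7l2 is at chr19:55741560-55741809 (plus strand), Lef1 at chr3:131110047-131110296 (plus strand), Prkcd at chr14:30626209-30626458 (minus strand), Rgs16 at chr1:153740103-153740352 (plus strand) and Synpo2 at chr3:123236150-123236399 (minus strand). Capitals mark the core of the TCF/LEF motif, CTTTGA or TCAAAG on the other strand.

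Tcf7l2: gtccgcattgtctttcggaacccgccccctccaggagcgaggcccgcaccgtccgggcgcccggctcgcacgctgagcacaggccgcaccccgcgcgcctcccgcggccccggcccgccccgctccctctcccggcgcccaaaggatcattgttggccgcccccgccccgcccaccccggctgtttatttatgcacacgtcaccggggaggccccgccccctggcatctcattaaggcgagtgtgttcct
Lef1: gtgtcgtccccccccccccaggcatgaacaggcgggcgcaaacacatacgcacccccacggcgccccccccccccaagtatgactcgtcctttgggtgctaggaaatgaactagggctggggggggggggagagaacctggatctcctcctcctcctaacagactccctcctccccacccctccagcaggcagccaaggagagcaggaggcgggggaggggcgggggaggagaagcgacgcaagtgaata
Prkcd: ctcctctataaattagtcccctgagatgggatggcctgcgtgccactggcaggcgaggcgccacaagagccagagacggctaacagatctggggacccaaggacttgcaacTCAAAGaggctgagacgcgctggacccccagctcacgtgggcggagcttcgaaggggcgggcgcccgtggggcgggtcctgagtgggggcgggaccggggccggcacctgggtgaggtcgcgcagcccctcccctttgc
Rgs16: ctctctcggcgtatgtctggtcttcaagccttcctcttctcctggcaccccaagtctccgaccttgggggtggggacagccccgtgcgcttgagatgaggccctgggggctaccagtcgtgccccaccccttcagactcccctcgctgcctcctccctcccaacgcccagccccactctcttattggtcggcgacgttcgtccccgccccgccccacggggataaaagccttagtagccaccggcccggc
Synpo2: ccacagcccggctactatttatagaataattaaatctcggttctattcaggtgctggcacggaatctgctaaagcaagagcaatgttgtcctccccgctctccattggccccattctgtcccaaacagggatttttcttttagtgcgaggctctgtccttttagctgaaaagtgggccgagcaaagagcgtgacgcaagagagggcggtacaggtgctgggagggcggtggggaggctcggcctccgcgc

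A single match to CTTTGA was found among the 8 windows, in Prkcd, 139 bases before the start. Of all 27025 mouse promoter windows of this length, 14.1% held a match. The RORA half-site core AGGTCA, or TGACCT on the other strand, had 0 matches in the 8 windows and was in 13.8% of all promoters. The GC content was 72.8% for Tcf7l2, 66.4% for Lef1, 67.6% for Prkcd, 66.4% for Rgs16 and 54.4% for Synpo2, against a median of 52.0% over all windows. The remaining members had 62.4% (Ntng1), 61.2% (Rora) and 53.2% (Slc17a6).

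For 5 of the 8 genes, the same 2 control libraries stood above all the others. CON 1 was the highest and CON 2 the second highest of the 12 libraries for Tcf7l2, Lef1, Prkcd, Rgs16 and Synpo2. The third control, CON 3, lay inside the range of the 9 PQQ libraries for each of the 8 genes. CON 1 and CON 2 were the 2 highest libraries for 301 of all 13796 genes tested, or 2.18%, against 62.5% of the members. This count was chosen after the values were seen and is given as a description.

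**Figure D1:**
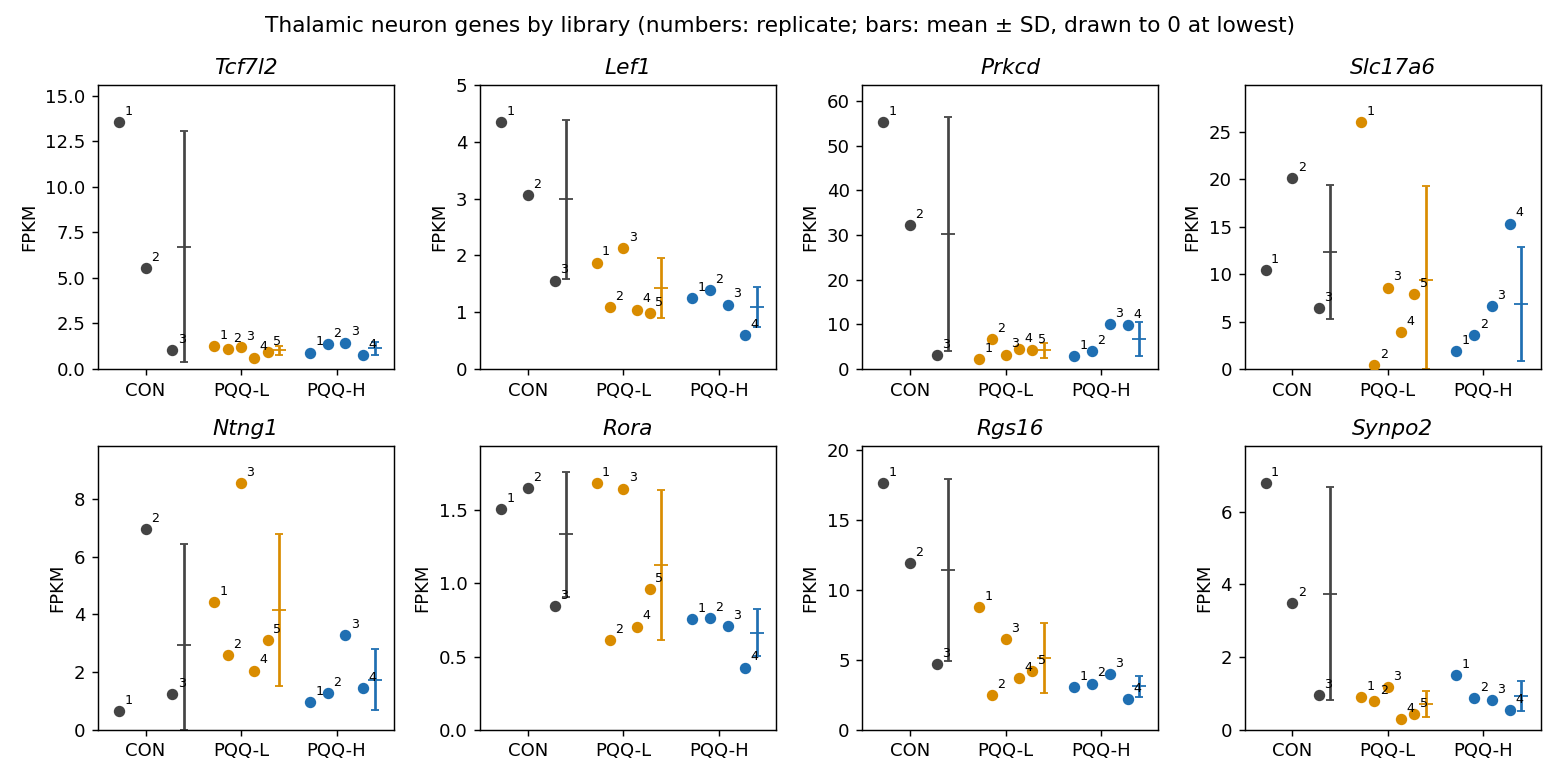
FPKM (vertical axis, linear, from 0) of the 8 genes in each library, with 1 panel a gene, points numbered by replicate and bars showing the mean ± SD of each group (cut at 0 where the SD passes it). CON 1 and CON 2 are the 2 highest points for Tcf7l2, Lef1, Prkcd, Rgs16 and Synpo2, whereas CON 3 lies among the PQQ libraries in all panels.

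TCF7L2, LEF1 and RORA are the transcription factors among the members. The FPKM of Tcf7l2 (chromosome 19) was 13.6, 5.53 and 1.02 in CON 1 to CON 3. In PQQ-L it was 1.25, 1.08, 1.22, 0.626 and 0.907. In PQQ-H it was 0.893, 1.38, 1.44 and 0.774. The other 10 libraries therefore lay at or below 1.44, beneath the 2 high controls. The group means were 6.70 ± 6.35 (SD, n = 3), 1.02 ± 0.256 (SD, n = 5) and 1.12 ± 0.339 (SD, n = 4), so that the SD of CON nearly equalled its mean. The log2FC was −2.02 ± 0.61 (standard error) in PQQ-L vs. CON (limma, adjusted p = 0.186). In PQQ-H vs. CON it was −1.90 ± 0.63 (limma, adjusted p = 0.308).

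Lef1 (chromosome 3), the other TCF/LEF factor, had a smaller range. Its FPKM was 4.35, 3.06 and 1.56 in CON. It was 1.87, 1.09, 2.12, 1.05 and 0.981 in PQQ-L, and 1.25, 1.38, 1.13 and 0.590 in PQQ-H. All 4 PQQ-H libraries were below the lowest control, while PQQ-L overlapped CON. The log2FC was −0.97 ± 0.37 in PQQ-L vs. CON (limma, adjusted p = 0.229) and −1.32 ± 0.38 in PQQ-H vs. CON (limma, adjusted p = 0.193).

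Rora (chromosome 9) encodes a nuclear receptor of the thalamus, cortex and cerebellum. Its FPKM was 1.51, 1.65 and 0.845 in CON. The PQQ-L libraries were at 1.69, 0.614, 1.65, 0.706 and 0.963. The PQQ-H libraries were at 0.757, 0.764, 0.709 and 0.425. PQQ-L 1 and PQQ-L 3 reached the level of the 2 high controls, and the 4 PQQ-H libraries were below all controls. The log2FC was −0.28 ± 0.35 in PQQ-L vs. CON (limma, adjusted p = 0.589) and −0.89 ± 0.36 in PQQ-H vs. CON (limma, adjusted p = 0.438). The annotation places Gm15511 on the opposite strand of Rora, with an FPKM of at most 0.401, and the strandedness of the counting is not given in the sources used here. Lef1 and Rgs16 have such antisense partners too, Gm43352 and Gm28513, for which no value was used here.

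Among the signalling genes, Prkcd (chromosome 14) encodes protein kinase C delta, a marker of relay neurons. It had the highest mean FPKM of the 8 genes over the 12 libraries, 11.5. In CON its FPKM was 55.3, 32.2 and 3.11. It was 2.23, 6.70, 3.22, 4.47 and 4.21 in PQQ-L. It was 2.83, 3.94, 10.0 and 9.82 in PQQ-H. CON 1 exceeded the lowest library, PQQ-L 1, by 24.8-fold, but CON 3 was the third lowest of 12. The log2FC was −2.16 ± 0.79 in PQQ-L vs. CON (limma, adjusted p = 0.224) and −1.61 ± 0.83 in PQQ-H vs. CON (limma, adjusted p = 0.579).

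Rgs16 (chromosome 1) encodes a regulator that shortens signalling through G proteins. Its FPKM was 17.6, 11.9 and 4.66 in CON. PQQ-L gave 8.77, 2.46, 6.49, 3.66 and 4.16. PQQ-H gave 3.01, 3.29, 3.97 and 2.16. The 4 PQQ-H libraries were below all controls, and PQQ-L 1 and PQQ-L 3 were above CON 3. The log2FC was −1.08 ± 0.45 in PQQ-L vs. CON (limma, adjusted p = 0.235) and −1.68 ± 0.47 in PQQ-H vs. CON (limma, adjusted p = 0.173).

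Synpo2 (chromosome 3) encodes synaptopodin 2, an actin-binding protein. Its FPKM was 6.80, 3.48 and 0.959 in CON. The 5 PQQ-L values were 0.890, 0.786, 1.17, 0.291 and 0.436. The 4 PQQ-H values were 1.50, 0.859, 0.820 and 0.532. As for Tcf7l2, CON 3 was within the PQQ range and the other controls far above it. The log2FC was −1.99 ± 0.56 in PQQ-L vs. CON (limma, adjusted p = 0.169) and −1.61 ± 0.59 in PQQ-H vs. CON (limma, adjusted p = 0.368).

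The genes of transmission and connection behaved otherwise. Slc17a6 (chromosome 7) had an FPKM of 10.4, 20.1 and 6.41 in CON. In PQQ-L it was 26.0, 0.379, 8.58, 3.86 and 7.91. In PQQ-H it was 1.89, 3.57, 6.60 and 15.3. The highest and the lowest library of all 12 were both in PQQ-L, with 68.7-fold between them, and rested on 4208 and 65 reads. The log2FC was −1.13 ± 1.07 in PQQ-L vs. CON (limma, adjusted p = 0.486) and −1.09 ± 1.12 in PQQ-H vs. CON (limma, adjusted p = 0.806), each within about 1 standard error of 0. Its relative Slc17a7 ran from 118 FPKM in CON 1 to 599 FPKM in PQQ-H 3.

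Ntng1 (chromosome 3) encodes netrin-G1, an adhesion protein on thalamic axons. Its FPKM was 0.639, 6.95 and 1.23 in CON. In PQQ-L it was 4.44, 2.59, 8.57, 2.05 and 3.11. In PQQ-H it was 0.959, 1.26, 3.30 and 1.44. CON 1, the highest library for 5 members, was the lowest of all 12 for Ntng1. The log2FC was 0.97 ± 0.68 in PQQ-L vs. CON (limma, adjusted p = 0.354), the single positive value among the members against CON. It was −0.20 ± 0.71 in PQQ-H vs. CON (limma, adjusted p = 0.942).

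The threshold for a call was a |log2FC| over 1 together with an adjusted p under 0.05, across all 13796 genes tested. All 8 members passed the filter on low values, a mean FPKM of at least 0.5. In PQQ-L vs. CON, 0 of 8 members were called, where 65 of all genes were, or 0.471%. At an unadjusted limma p below 0.05, 5 of 8 members were lower (Tcf7l2, Lef1, Prkcd, Rgs16 and Synpo2) and 0 were higher, against 11.6% and 8.92% of all genes tested. The median log2FC of the 8 genes was −1.11, beside −0.03 over all genes tested. The log2FC was below 0 for 7 of 8 members (53.9% of all genes) and below −1 for 5 of 8 (2.99% of all genes). For 0 of 8 members did PQQ-L lie entirely below or entirely above CON, against 7.66% and 2.96% of all genes.

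In PQQ-H vs. CON, 0 of 8 members were called, where 113 of all genes were, or 0.819%. At an unadjusted limma p below 0.05, 5 of 8 were lower (Tcf7l2, Lef1, Rora, Rgs16 and Synpo2) and 0 were higher, against 7.88% and 1.85% of all genes. The median log2FC was −1.47, beside −0.03 over all genes. PQQ-H lay entirely below CON for 3 of 8 members, Lef1, Rora and Rgs16, against 5.72% of all genes, and entirely above for 0 of 8 (1.36% of all genes). The log2FC was below 0 for 8 of 8 members (55.6% of all genes) and below −1 for 6 of 8 (2.51% of all genes). Both comparisons use the same 3 control libraries, so their values are not independent of each other.

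Between the doses, in PQQ-H vs. PQQ-L, 0 of 8 members were called, as were 0.0% of all genes. At an unadjusted limma p below 0.05, 0 members passed in either direction, against 4.6% lower and 3.55% higher among all genes. The members split evenly, with 4 of 8 below 0 (54.3% of all genes), 1 of 8 below −1 (0.747%) and a median log2FC of −0.15, beside −0.02 over all genes. The groups overlapped for all 8 members, while 3.33% of all genes had PQQ-H entirely below PQQ-L and 1.42% entirely above. The largest difference was that of Ntng1, −1.18 ± 0.62 (limma, adjusted p = 0.58), followed by Rora at −0.60 ± 0.32 (limma, adjusted p = 0.58). For Tcf7l2 the difference between the doses was 0.12 ± 0.56.

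**Figure D2:**
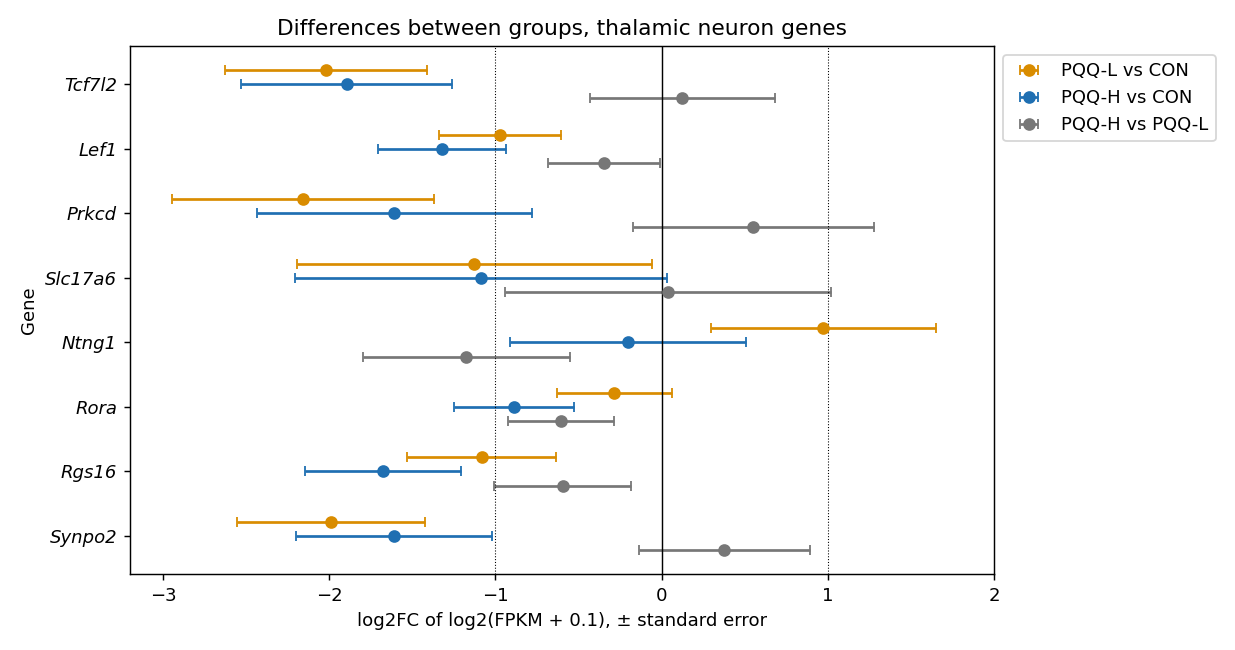
Fitted log2FC of log2(FPKM + 0.1) for the 8 genes (horizontal axis), with bars of 1 standard error, in the 3 comparisons, and dotted lines at the threshold of 1. Against CON most points lie below 0, with Ntng1 in PQQ-L vs. CON at 0.97, and none of the 24 points passed the adjusted p of 0.05.

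These values depended on which controls were kept. CON 1 and CON 2 were picked out as the 2 highest libraries for 5 members, Tcf7l2 and Prkcd among them. For these genes, leaving both out had to raise the log2FC, and leaving out CON 3 had to lower it. The calls of Tcf7l2 and Prkcd given here describe that dependence and are no separate support for a difference. Without CON 1 and CON 2, the median log2FC of the members was −0.0235 for PQQ-L and −0.22 for PQQ-H, each against CON, with 0 members called, and the remaining control, CON 3, was assumed to vary like the other groups. Tcf7l2 then stood at −0.0409 and 0.0833, and Prkcd at 0.32 and 0.87. Without CON 3 instead, Tcf7l2 was called against CON for PQQ-L (log2FC −3.01, limma, adjusted p = 0.00812) and for PQQ-H (−2.89, limma, adjusted p = 0.00823), and Prkcd for PQQ-L (−3.40, limma, adjusted p = 0.0288). Without CON 2, Ntng1 was called higher in PQQ-L vs. CON (1.92, limma, adjusted p = 0.0367), in a fit where 866 of all genes were called in place of 65, 435 of them higher in place of 0. Without CON 3, 37 of all genes were called for PQQ-L and 62 for PQQ-H.

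Leaving out the 4 libraries with high striatum genes (CON 1, CON 3, PQQ-H 1 and PQQ-H 2) kept CON 2 as the single control, a library with a summed FPKM of 362 for the hippocampal neuron genes. The median log2FC of the members was then −1.67 for PQQ-L and −1.73 for PQQ-H against CON, and 0 members were called. In that fit, 1 of all 13796 genes was called for PQQ-L and 6 for PQQ-H, so 0 of 8 says little about the members, and CON 2 was assumed to vary like the other groups. Tcf7l2 was −2.37 and −2.28, and Prkcd −3.01 and −1.69. Ntng1 turned from 0.97 to −0.92 in PQQ-L vs. CON. CON 2 had low striatum genes (summed FPKM 56.3) and was the second highest of the 12 libraries for all 8 members. The negative medians of this fit follow from the control that was kept. The part of striatum tissue in the levels of the members was not tested.

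Library names begin with 1 of 2 letters that the labels do not explain, 7 with L and 5 with R. Among the L libraries, which hold CON 2 and CON 3, the difference from CON in mean log2(FPKM + 0.1) was below 0 for 8 of 8 members at each dose, with medians of −1.03 for PQQ-L and −0.89 for PQQ-H. Among the R libraries, with CON 1 as the single control, it was below 0 for 7 of 8 and 6 of 8, with medians of −1.55 and −2.59. PQQ-H 4 is the single PQQ-H library with this letter, so that value is 1 library against 1 library. CON 2 was the second highest of the 12 libraries for all 8 members, and CON 1 the highest for 5. The negative differences within each letter depend on these controls and are no separate support for a difference. The same counts over all genes were not made within each letter.

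The spread of the members was wide compared with other genes. The SD of log2(FPKM + 0.1) over the 12 libraries was 1.57 for Slc17a6, 1.42 for Prkcd, 1.22 for Tcf7l2, 1.14 for Synpo2 and 1.10 for Ntng1. Between 97.3% and 99.0% of all genes tested had a lower SD than these 5. It was 0.91 for Rgs16, 0.73 for Lef1 and 0.59 for Rora, above 96.0%, 93.0% and 88.9% of all genes. For Tcf7l2, the SD within groups was 1.83 in CON, 0.37 in PQQ-L and 0.41 in PQQ-H, so its spread lay in the controls. For Slc17a6 it was 0.82, 2.14 and 1.26, so its spread lay in the treated libraries.

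The members also differed in how they moved together. Over the 12 libraries, Pearson r of log2(FPKM + 0.1) was 0.92 for Tcf7l2 with Synpo2 (Spearman rho 0.63), 0.93 for Lef1 with Rgs16 (rho 0.81) and 0.85 for Tcf7l2 with Prkcd (rho 0.40). Over the 10 libraries without CON 1 and CON 2, these were 0.60, 0.81 and −0.06. Lef1 and Prkcd went from 0.51 to −0.75, and Rora with Prkcd from 0.19 to −0.74. Rora with Rgs16 was 0.90 over 12 libraries and 0.94 over 10. The positive r of Prkcd with Tcf7l2 and with Lef1 was thus not seen over the 10 libraries, while that of Rora with Rgs16 was. These are descriptions over libraries that share their groups, with no test.

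The gene most like each member in its pattern over the 12 libraries was named by Pearson r. The other members and unnamed gene models (Gm or Rik names) were left out of this ranking. These were Rab37 for Tcf7l2 (r 0.97, and 0.63 over 10 libraries without CON 1 and CON 2), Gjc1 for Lef1 (0.97 and 0.91) and Pex16 for Prkcd (0.92 and 0.80). They were Slc3a1 for Slc17a6 (0.89 and 0.88), Dtx1 for Ntng1 (0.97 and 0.96) and Vwc2 for Rora (0.94 and 0.93). They were Irag1 for Rgs16 (0.93 and 0.81) and Wnt3 for Synpo2 (0.97 and 0.88). Shox2, a homeobox gene of the thalamus, was second for Tcf7l2 (0.96 and 0.55). For the mean of the 8 members, the nearest genes included Xylt2 (r 0.93), Irag1 (0.92), Lhfpl6 (0.91), Amotl1 (0.91) and Zic1 (0.91). Zic1 encodes a zinc finger transcription factor.

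A list of other genes of the thalamus was read in the same way, and most of those tested were also highest in CON 1 and CON 2. Of the 18 genes in the list, 14 passed the filter, and CON 1 and CON 2 were the 2 highest libraries for 8 of these 14 (57.1%). The FPKM of Shox2 was 6.91 in CON 1 and 2.59 in CON 2, but 0.0107 in CON 3 and at most 0.375 in the 9 PQQ libraries. Gbx2, a homeobox gene that specifies the thalamus, did not pass the filter, and had 159 reads in CON 1, 62 in CON 2 and 0 to 14 in each of the other 10 libraries. Tnnt1, which encodes a troponin and is also expressed in the thalamus, was at 14.3, 6.71 and 1.33 in CON and at 0.555 to 1.96 in PQQ. Ramp3, a receptor accessory protein, was at 38.6, 18.6 and 6.07 in CON and at 2.81 to 6.21 in PQQ. Of these genes, too, the 2 high controls and the third did not share a level.

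None of the 14 genes was called in any comparison. In PQQ-L vs. CON, 11 of 14 were lower at an unadjusted limma p below 0.05 (11.6% of all genes). In PQQ-H vs. CON, 8 of 14 were (7.88% of all genes). The medians were −1.30 and −1.16. The 11 genes included Six3, Foxp2 and Prkch, whose other pattern is given below. Lhx9, Cacna1g and Calb2 went the other way in PQQ-L vs. CON, with a log2FC of 1.91 ± 0.99, 0.62 ± 0.34 and 0.70 ± 0.85. In PQQ-H vs. CON they were at 0.60, −0.03 and −0.40. The lowest adjusted p was that of Tnnt1 in PQQ-L vs. CON, 0.103 by limma, with a log2FC of −2.41 ± 0.57. Six3 and Foxp2, which neurons of the striatum also use, and Prkch had another pattern. The FPKM of Six3 was 20.0 in CON 1, 0.623 in CON 2 and 3.55 in CON 3, and 11.8 and 7.10 in PQQ-H 1 and PQQ-H 2. Calb2, which encodes calretinin, was highest in PQQ-L 3, at 79.6 FPKM, followed by CON 2 at 48.2.

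**Figure D3:**
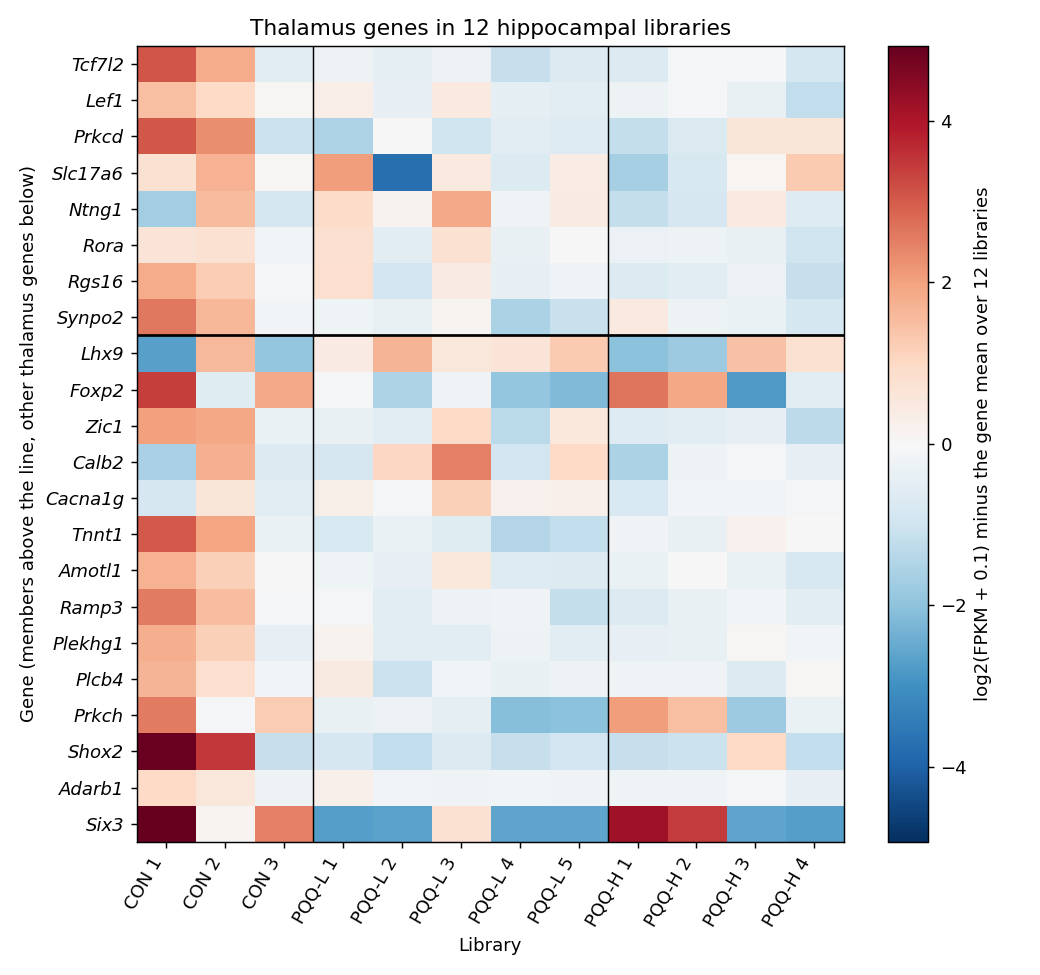
Levels of the 8 members (above the line) and of the 14 other thalamus genes that passed the filter (below it) in each library, as log2(FPKM + 0.1) minus the mean of each gene over 12 libraries, with red above and blue below the mean. The reddest cells are in CON 1 and CON 2 for 5 of the 8 rows above the line and 8 of the 14 below, while Six3, Foxp2 and Prkch are also red in CON 3, PQQ-H 1 and PQQ-H 2.

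The members were set beside genes of neighbouring tissue, whose part in the result was not tested. The mean of the members, as log2(FPKM + 0.1) minus the mean of each gene, was 1.47 in CON 1, 1.50 in CON 2 and −0.33 in CON 3, and ran from −0.78 to 0.37 in the 9 PQQ libraries. The striatum genes were at 4.13, −1.89 and 2.76 in the 3 controls on the same scale, and the hippocampal neuron genes at −2.60, 0.76 and −1.21. CON 1 and CON 2 thus shared high thalamic genes but had opposite striatum and hippocampal levels. The choroid plexus genes were at 2.30, 2.12 and 3.55 in the controls and at −1.56 to 0.26 in PQQ. All 3 controls were therefore above all PQQ libraries for the choroid plexus, of which 9 of 12 genes were called lower with PQQ-L and 10 of 12 with PQQ-H, while 5 of the 8 thalamic genes were highest in CON 1 and CON 2 and none was highest in CON 3. Among the 15 striatum genes and the 15 hippocampal neuron genes, 0 were called in any comparison. The ependyma genes had 0 and 3 of 7 called lower in PQQ-L and PQQ-H, each against CON, and the meninges genes 1 and 3 of 9. In the other 9 lists of regions and cell types, such as hypothalamus, oligodendrocytes and astrocytes, 0 genes were called.

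**Figure D4:**
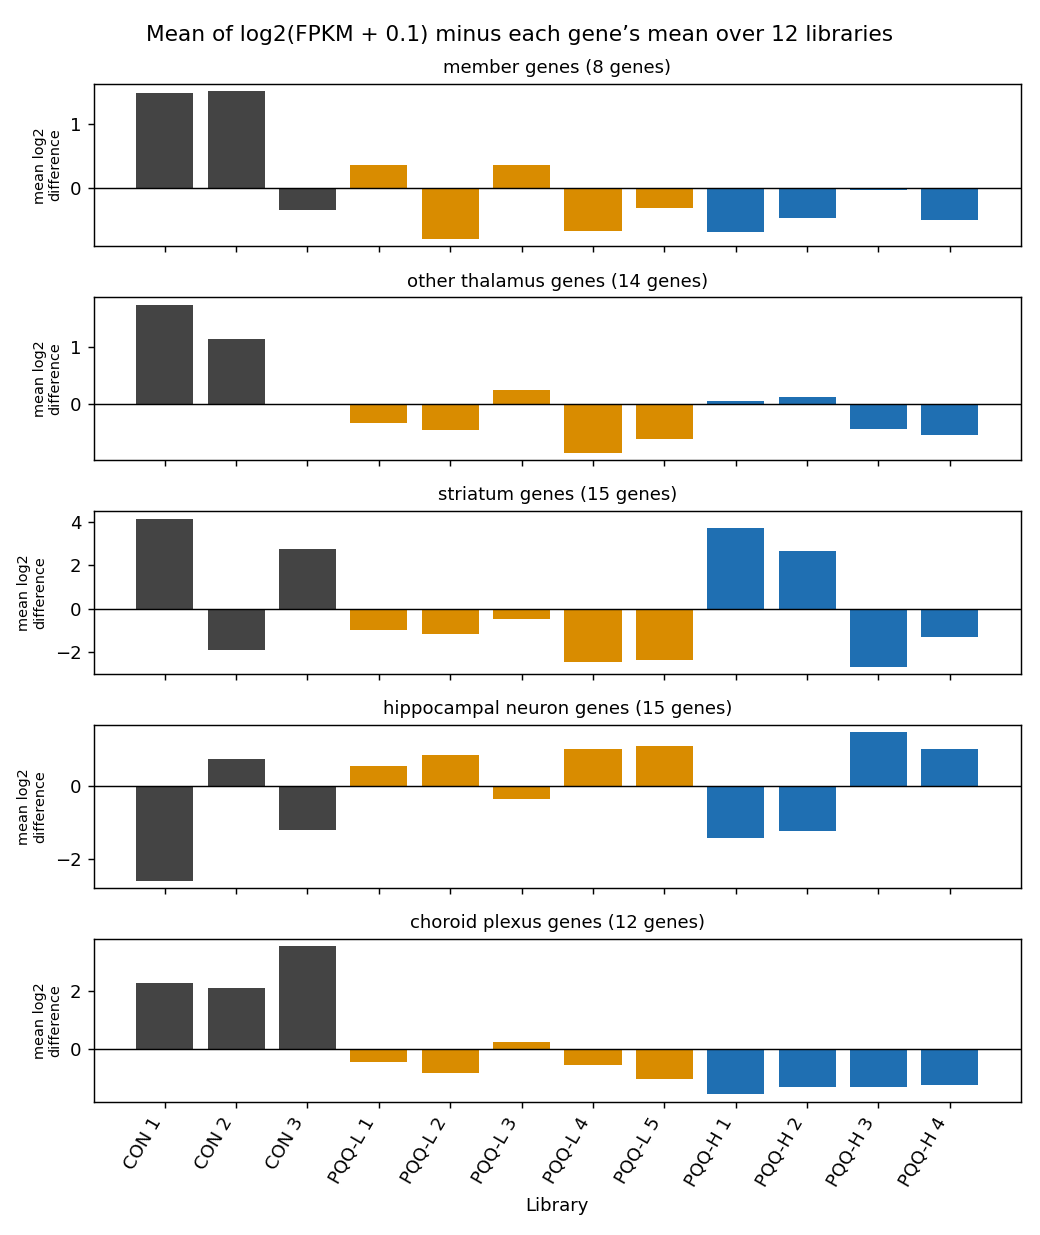
Mean over the genes of each list of log2(FPKM + 0.1) minus the mean of the gene over 12 libraries (vertical axis, bars from 0) for each library (horizontal axis; grey CON, orange PQQ-L, blue PQQ-H). The members reach 1.47 and 1.50 in CON 1 and CON 2, where the striatum genes are at 4.13 and −1.89.

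The genes of the habenula, which borders the thalamus, did not follow CON 1 and CON 2 as a list. Of its 10 genes 5 passed the filter and 0 were called, with medians of −0.41 and −0.87 against CON. CON 1 and CON 2 were the 2 highest libraries for 1 of the 5. The mean of the list, on the scale used above, was −0.03 in CON 1 and 1.25 in CON 2, and the summed FPKM in CON 1, 12.1, lay within the PQQ range of 6.47 to 17.4. Of the genes that did not pass the filter, Pou4f1, which defines habenular neurons, had 75 reads in CON 1, 24 in CON 2 and 0 to 2 in each of the other 10 libraries. Irx2 had 84 and 22 reads in the same 2 libraries and 0 to 2 elsewhere. Both were picked out after their values were seen, and the reads of Chrnb4, Chrnb3 and Chrna3, also below the filter, are not given here.

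The partners and targets of the TCF/LEF factors, pooled in 1 list, had a median near 0. Of 24 listed genes 21 passed the filter and 0 were called, and the median log2FC against CON was 0.03 for the low dose and −0.03 for the high dose, the order kept for the next genes. Beta-catenin (Ctnnb1), the coactivator of the pathway, had a log2FC of 0.07 ± 0.09 and −0.02 ± 0.10. Axin2, a common target, was at −0.33 ± 0.10 (limma, adjusted p = 0.188) and −0.40 ± 0.10 (limma, adjusted p = 0.131). Rnf43, a target that restrains Wnt receptors, was at −0.91 ± 0.37 and −1.17 ± 0.38 (limma, adjusted p = 0.235 and 0.289). Nkd1 was at −0.86 ± 0.38 and −0.73 ± 0.39, Notum at −0.32 and −0.11, Znrf3 at 0.03 and −0.09, and Tnfrsf19 at 0.23 and 0.14. At an unadjusted limma p below 0.05, 3 of 21 genes were lower at each dose (11.6% and 7.88% of all genes). Higher were 1 and 0 of 21 (8.92% and 1.85% of all genes).

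Relatives of the members in the same gene families gave median log2FC values of 0.06 for the low dose and 0.01 for the high dose against CON. Of 20 such genes 19 passed the filter and 0 were called. Prkcq, another protein kinase C gene, had the lowest adjusted p, with a log2FC of −0.84 ± 0.15 in PQQ-L vs. CON (limma, adjusted p = 0.0359) and −0.93 ± 0.16 in PQQ-H vs. CON (limma, adjusted p = 0.0192). Its FPKM was 5.37, 4.27 and 5.26 in CON and 2.07 to 3.42 in the 9 PQQ libraries, so that the groups did not overlap, but the changes were below the threshold of 1. Slc17a7 had a log2FC of 0.94 ± 0.39 and 0.58 ± 0.41 against CON (limma, adjusted p = 0.237 and 0.72), the opposite sign to Slc17a6.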

How the data were processed

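Hippocampal RNA was extracted with TRIzol and sequenced on a NovaSeq 6000. Per the methods, fastp filtering, HISAT2 mapping and HTSeq-count counting were run by the authors. The authors deposited FPKM values of 27833 genes in 1 table. The submitters' processing notes name mm39. The annotation, the strandedness and the program versions are not given in the sources used here, so reference coordinates (GRCm38.p6) are given for promoters only. Whole reads were recovered from FPKM ratios between libraries (tolerance 0.02 reads) for 100% of 25563 genes above 0 in 2 or more libraries. No same-group pair was a duplicate (chi-square divided by its degrees of freedom was at least 17.4 in 19 pairs).

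FPKM values are not counts, so the 13796 genes whose mean FPKM reached 0.5 were tested with limma 3.58.1 in R 4.3.3, as a moderated test with trend on log2(FPKM + 0.1). All 12 libraries entered 1 fit, with Benjamini-Hochberg adjustment and two-sided p-values. Fold changes on this scale understate those of low genes. In a simulation of 13796 genes, 200 of them had a log2 change of −3. Against CON, the test called 196 of the 200 for PQQ-L and 195 for PQQ-H, with 8 and 6 unchanged genes called. The simulated noise was normal with 1 SD per gene in all groups, whereas the SD of Tcf7l2 was 1.83 in CON and 0.37 in PQQ-L. No member reached a log2FC of −3 in the fit of all 12 libraries. The simulation therefore does not show how often changes like those of the members would be called. Counting error alone does not cover the differences in read numbers between libraries, as the chi-square values of same-group pairs show. The text names all 8 members, the genes nearest to them by Pearson r, and genes of fixed lists (1 gene under this rule is not reported here), which cover thalamus, habenula, TCF/LEF partners, relatives, striatum, hippocampal neurons, choroid plexus and other cell types. The members and lists were chosen with earlier results of these data known. Alternatives covered the pseudocount, filter, scaling, model and each library left out. Tables and figures were made with Python 3.11.15 (pandas 2.3.3, numpy 2.4.6, matplotlib 3.10.9).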

Additional observations from a re-analysis of the deposited data

Results flagged for a closer look

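In PQQ-H, the FPKM of Rora was 0.425 in PQQ-H 4 and 0.709 to 0.764 in the other 3 libraries, so that this library stood far from the rest of its group. It was 1 of 16 sets of PQQ libraries checked in this way, and chance marks about 1 in 20. PQQ-H 4 was also the lowest of all 12 libraries for Lef1 (0.590) and Rgs16 (2.16).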

How the results depend on the processing

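Under 12 alternatives other than leaving out a library, 0 members were called in each comparison, and the medians of the 8 genes kept their sign, from −1.42 to −0.89 in PQQ-L vs. CON, from −2.02 to −1.02 in PQQ-H vs. CON and from −0.24 to −0.03 in PQQ-H vs. PQQ-L. With 1 library left out, 0 to 2 members were called in PQQ-L vs. CON, 0 to 1 in PQQ-H vs. CON and 0 in PQQ-H vs. PQQ-L. The libraries that decided these calls were CON 2 (Ntng1) and CON 3 (Tcf7l2 and Prkcd). Without CON 1 and CON 2, a choice made after seeing the data, the medians against CON were −0.0235 for PQQ-L and −0.22 for PQQ-H. Reversed signs without CON 1 and CON 2 were those of Prkcd (0.32) and Rora (0.27) in PQQ-L vs. CON, and of Tcf7l2 (0.0833), Prkcd (0.87) and Ntng1 (0.32) in PQQ-H vs. CON. Without the 4 libraries with high striatum genes, Ntng1 reversed to −0.92 in PQQ-L vs. CON. In PQQ-H vs. CON, Ntng1 reversed without CON 2 (0.74) and without PQQ-H 1 (0.0124). Between the doses, where it ranged from −0.81 to 0.63 with 1 library left out, Slc17a6 reversed with a pseudocount of 1 (−0.11) and without PQQ-L 2 (−0.81), PQQ-L 4 (−0.0523), PQQ-H 3 (−0.0795) or PQQ-H 4 (−0.48), and Tcf7l2 without PQQ-L 4 (−0.0223) or PQQ-H 3 (−0.0017). The cause was not tested.

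The number of all genes called moved more, from 65 to between 17 and 123 for PQQ-L and from 113 to between 31 and 170 for PQQ-H against CON, with 123 for PQQ-L and 159 for PQQ-H by voom on the recovered reads. It was 23 to 866 in PQQ-L vs. CON with 1 library left out (866 without CON 2, 23 without CON 1) and 62 to 153 in PQQ-H vs. CON. The groups share replicate numbers, and the deviations of same-numbered libraries had correlations of both signs. These ran from −0.62 (CON 2 with PQQ-H 2) to 0.72 (CON 1 with PQQ-H 1). They cannot settle whether libraries were paired by number, since the libraries also differed in their striatum genes. With the replicate number as a block, 23 and 48 of all genes and 0 members were called against CON, with member medians of −1.21, −1.32 and −0.18. Each member had at least 65 reads in every library. The number of controls, 3, limits each comparison with CON.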
